A study of Homo sapiens with 16 samples.

Results

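The levels of 10 immediate early and AP-1 genes were followed across 16 libraries of human lung cancer cells: FOS, FOSB, FOSL1, FOSL2, JUN, JUNB, EGR1, IER2, DUSP1 and KLF6. They were chosen by name, with earlier results of these data known. They come from the FOS and JUN families and from genes that are switched on early after a stimulus. JUND, also of the JUN family, is not among them. All 10 were found among the 18227 genes measured. AP-1 is a transcription factor made of a FOS-family and a JUN-family protein, or of JUN-family proteins paired with each other, joined through a leucine zipper. Immediate early genes are transcribed within minutes of a growth factor, stress or inflammatory signal, without new protein synthesis, mostly through MAP kinase signalling, and many of their mRNAs are short-lived because AU-rich and other elements direct their decay. In epithelial tumour cells, AP-1 activity has been linked to growth, adhesion and invasion, and its output depends on which members are present.

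Both cell lines, A549 and H2023, are established and derive from non-small cell lung cancers. Libraries labelled as a knockout of ZC3H12A were set against wild-type libraries. ZC3H12A encodes Regnase-1, an endoribonuclease that cleaves stem-loops in a set of mRNAs. Both genotypes were harvested from normal culture after 3 days and from a culture that enriches for stem-like cells (oncospheres) after 7 days, so culture type and time change together. The 8 groups, each of 2 libraries, were therefore wild type and labelled knockout in each of these cultures, in A549 and in H2023. No other allele or agent is named for any group. The titles name 1 knockout clone per line, so a difference from wild type holds the edit together with whatever else sets that clone apart. Nothing in the labels says that the replicates were separate cultures. The p-values thus measure only the spread between these libraries, which may be technical.

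Expression was deposited as TPM, an abundance which is scaled for transcript length and for the total of each library, and it keeps no record of sequencing depth. A library had 13824 to 14508 genes at 1 TPM or more, replicates correlated across genes with r between 0.983 and 0.992, and the mitochondrial share of TPM was 10.3% to 18.7% in normal and 19.5% to 25.6% in stem-cell-enriched culture. ZC3H12A was lower in the libraries labelled knockout only in A549 normal culture, where it had a mean of 18.4 TPM against 32.8 TPM in wild type. It was higher in those of A549 stem-cell-enriched (57.9 against 48.8 TPM), H2023 normal (41.5 against 28.3 TPM) and H2023 stem-cell-enriched culture (81.9 against 29.5 TPM). The transcript level was therefore not lowered in 3 of the 4 comparisons. An edit need not lower the transcript, so TPM cannot check the label. Every direction given for knockout is that of the libraries labelled so. All 7 epithelial markers were measured, with a summed level of at least 2571.5 TPM, carried mostly by KRT7, KRT8 and KRT18. Others were low in some groups. In A549 normal labelled knockout EPCAM, KRT19 and CLDN4 had means of 0.65, 0.48 and 0.595 TPM. KRT19 reached a mean of 651.2 TPM in H2023 stem-cell-enriched labelled knockout. Of 5 leukocyte markers 1, CD14, was in the tables, at 6.61 to 13.05 TPM in A549 normal, 26.79 to 47.61 TPM in A549 stem-cell-enriched and at most 2.05 TPM in H2023 libraries. The tables held 1 of 3 endothelial, 2 of 4 fibroblast and 1 of 5 lung markers, and the sum of each of these lists stayed at or below 8.63 TPM. The part of these markers in the results was not tested.

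The 10 genes lie on 7 chromosomes of GRCh38 (GENCODE v29), and all are protein-coding. FOS is at chr14:75278774-75282230 (+), FOSB at chr19:45467995-45475179 (+), FOSL1 at chr11:65892049-65900573 (-) and FOSL2 at chr2:28392448-28417312 (+). JUN is at chr1:58780788-58784327 (-) and JUNB at chr19:12791496-12793315 (+). EGR1 is at chr5:138465490-138469315 (+), IER2 at chr19:13150415-13154908 (+), DUSP1 at chr5:172768090-172771195 (-) and KLF6 at chr10:3775996-3785281 (-). FOSB overlaps ERCC1 and JUNB overlaps HOOK2, each on the opposite strand, and antisense genes overlap FOSL2, IER2 and DUSP1. The libraries were stranded, but whether strand was used in counting is not given in the sources used here, so the values of these 5 genes are less certain.

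Sequence just upstream of 4 of the genes is shown because it holds elements through which such genes are known to be switched on. RefSeq promoters (GRCh38.p14) were matched for 9 of the 10 genes, and FOSL1 was not among them. Each line is 5′ to 3′ on the strand of the gene and stops before the annotated gene, and capitals mark matches to the searched letters.
FOS, chr14:75278698-75278773 (+): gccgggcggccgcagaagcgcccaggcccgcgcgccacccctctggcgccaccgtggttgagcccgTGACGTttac
JUNB, chr19:12791356-12791485 (+): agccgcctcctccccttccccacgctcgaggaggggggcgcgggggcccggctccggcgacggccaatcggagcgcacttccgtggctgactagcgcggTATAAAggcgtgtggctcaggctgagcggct
EGR1, chr5:138465349-138465478 (+): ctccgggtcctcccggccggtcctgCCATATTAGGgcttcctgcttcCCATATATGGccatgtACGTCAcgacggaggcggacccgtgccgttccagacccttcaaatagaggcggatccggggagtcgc
DUSP1, chr5:172771196-172771325 (-): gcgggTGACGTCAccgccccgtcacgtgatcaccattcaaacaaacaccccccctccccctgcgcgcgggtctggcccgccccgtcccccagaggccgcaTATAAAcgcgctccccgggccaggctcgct

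The capitals in FOS are TGACGT, part of the cAMP response element bound by CREB and ATF proteins, and those in JUNB are a TATAAA box. In EGR1 they are 2 CArG boxes, the sequence bound by serum response factor, and ACGTCA, which is TGACGT read on the other strand. DUSP1 holds the palindrome TGACGTCA, which contains TGACGT on both strands, and a TATAAA box. Matches were counted in the 250 bases before each RefSeq start, on both strands except for TATAAA. The letters TGACGT were found for FOS, FOSB, FOSL2, EGR1 and DUSP1, against 7.1% of 35116 promoters, and the CArG box only for EGR1 among the 9, against 1.16%. TGACGTCA stood only in DUSP1 among the 9, against 1.65% of promoters. TATAAA was found for FOS, FOSB, JUNB and DUSP1, against 6.8% of promoters. The EGR site GCGNGGGCG was found for EGR1 and KLF6, against 8.41%, and the AP-1 site TGANTCA for none of the 9, against 6.57%. These are matches of letters in a short window, not measured binding.

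The levels of the 10 genes spanned a wide range within a library. DUSP1 reached 309.65 TPM in A549 normal culture, labelled knockout, and FOSL2 126.36 TPM in the same group. FOSB never exceeded 3.36 TPM, and EGR1 was under 3 TPM in 12 of the 16 libraries. FOS, FOSL1 and JUN ordered mainly by culture, DUSP1 by cell line, and FOSL2 by neither alone.

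**Figure D1:**
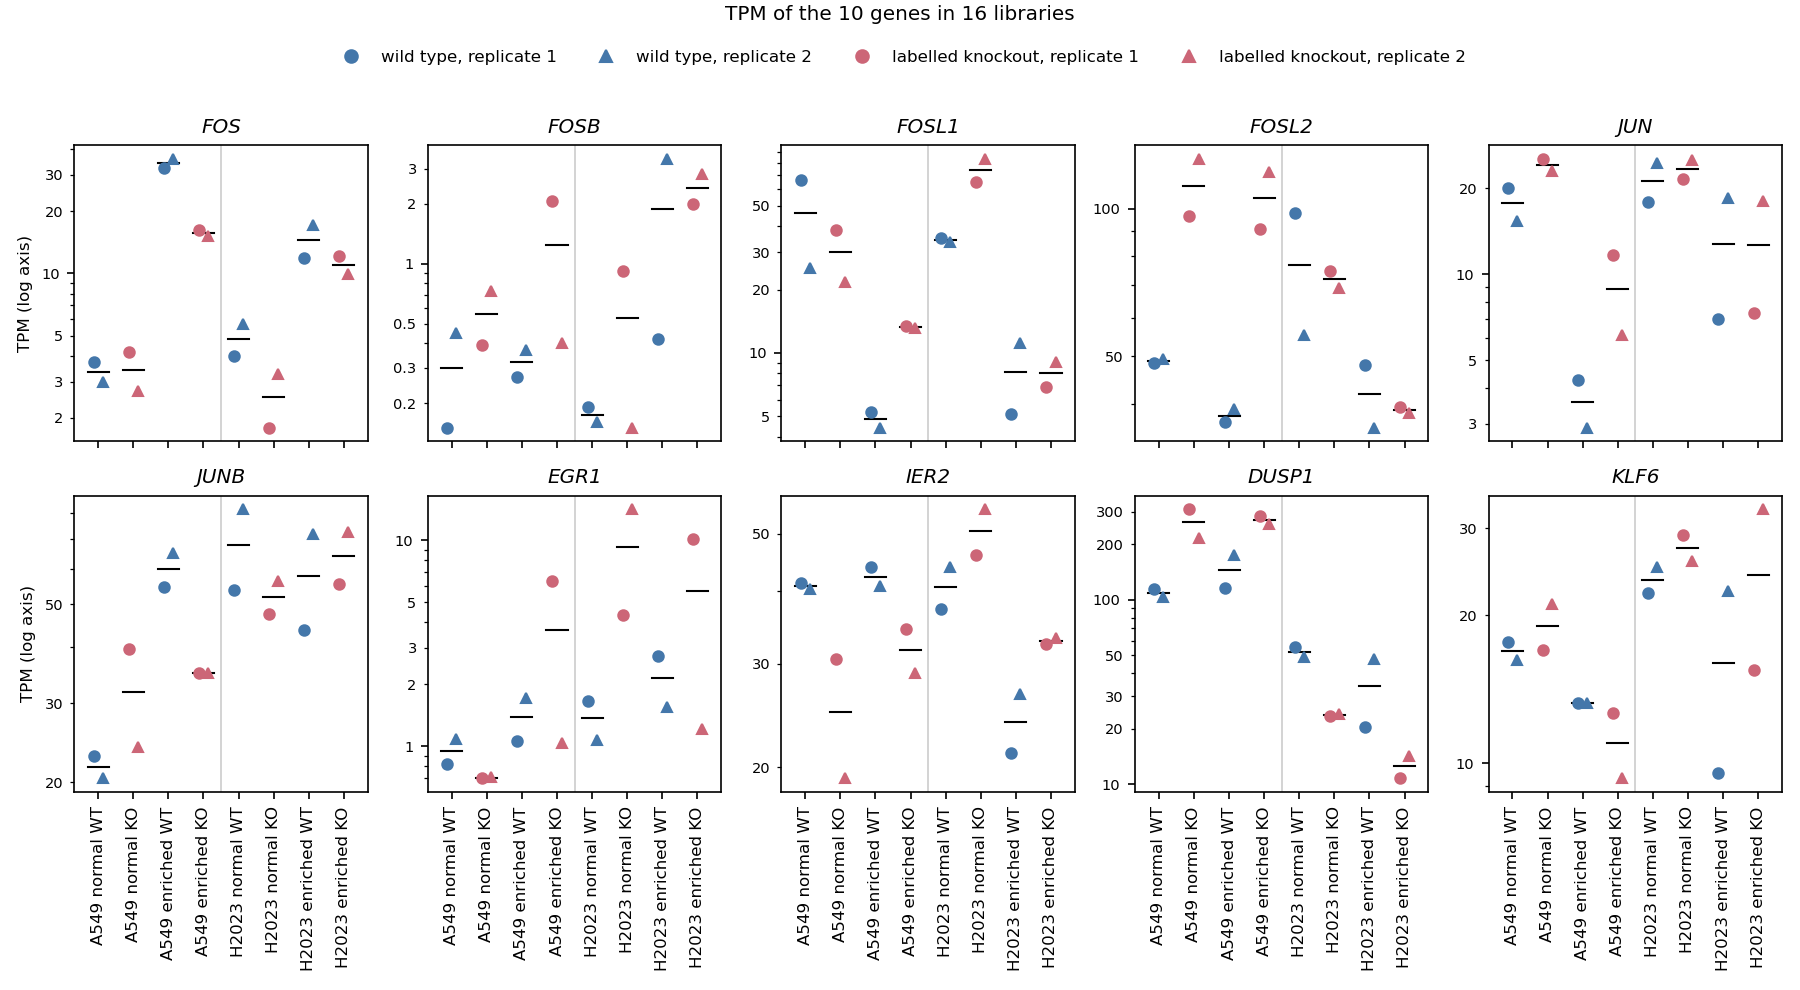
TPM (log axis, one scale per panel) of the 10 genes in the 16 libraries, by group along the horizontal axis; circles and triangles are replicates 1 and 2, blue is wild type, red is labelled knockout, and the black line is the mean of 2 libraries. FOS sat at 5.67 TPM or below in normal culture and at 9.96 TPM or above in stem-cell-enriched culture, while FOSL1 sat at 21.75 TPM or above and 13.4 TPM or below.

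The first comparison was between stem-cell-enriched and normal culture, within a line and genotype. FOS rose in all 4 such comparisons. FOSL1, a FOS-family member known for its role in invasive carcinoma cells, fell in 3 of the 4, and its fold change was negative in the fourth. JUN fell in both A549 comparisons, JUNB rose in A549 wild type and IER2 fell in both genotypes of H2023. Differences between bulk libraries cannot tell fewer cells with a transcript from less transcript per cell. The libraries compared here come from separate deposited tables, and they are set side by side because TPM is scaled within a library. In H2023 the median of all genes with at least 1 TPM moved by -0.24 in wild type and by -0.17 in labelled knockout on the log2 scale, and changes there are to be read relative to it.

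FOS encodes the founding FOS-family protein, whose gene is a standard read-out of acute stimulation. In A549 wild type it was at 3.71 and 2.97 TPM in normal culture and at 32.36 and 35.84 TPM in stem-cell-enriched culture. In A549 labelled knockout it was at 4.15 and 2.71 TPM in normal culture and at 16.25 and 15.21 TPM in stem-cell-enriched culture. The cultures did not overlap in either genotype. The means differed 10.2-fold in wild type, with a log2 fold change of 3.02 (SE 0.2, adjusted p = 5.35e-05, limma on log2(TPM + 1) here and below). In labelled knockout they differed 4.59-fold, with a log2 fold change of 1.94 (SE 0.2, adjusted p = 0.000658). The fold change on this scale understates the change of genes with low values.

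In H2023 wild type FOS was at 3.97 and 5.67 TPM in normal culture and at 11.91 and 17.18 TPM in stem-cell-enriched culture. In H2023 labelled knockout it was at 1.79 and 3.26 TPM and then at 12.14 and 9.96 TPM. Every stem-cell-enriched library again stood above every normal one. The log2 fold change of FOS was 1.41 in wild type (SE 0.29, adjusted p = 0.0201), a 3.02-fold difference of means, and 1.8 in labelled knockout (SE 0.29, adjusted p = 0.00692), a 4.38-fold difference. The wild-type call was lost without normal replicate 1 (1.2, adjusted p = 0.0999), normal replicate 2 (1.62, adjusted p = 0.0547) or stem-cell-enriched replicate 2 (1.16, adjusted p = 0.0909). Across the 8 groups FOS was highest in A549 stem-cell-enriched wild type, at a mean of 34.1 TPM, which stood clear of the next group. A549 stem-cell-enriched labelled knockout (15.7 TPM) and both H2023 stem-cell-enriched groups (14.5 and 11.1 TPM) overlapped with their neighbours in this order. The 4 normal groups, between 2.52 and 4.82 TPM, overlapped likewise.

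FOSL1 encodes FRA-1. It was at 66.63 and 25.35 TPM in A549 wild type in normal culture and at 5.26 and 4.4 TPM in stem-cell-enriched culture, a 9.52-fold lower mean (log2 fold change -2.86, SE 0.41, adjusted p = 0.00113). The normal replicates of that group were far apart from each other, and both stood above the stem-cell-enriched ones. In A549 labelled knockout FOSL1 was at 38.28 and 21.75 TPM and then at 13.4 and 13.17 TPM, without overlap, and the difference did not pass the test (log2 fold change -1.07, SE 0.41, adjusted p = 0.108). In H2023 wild type the normal values were 35.06 and 33.69 TPM and the stem-cell-enriched ones 5.15 and 11.13 TPM. The H2023 libraries labelled knockout had 64.99 and 83.57 TPM in normal culture and 6.92 and 9.06 TPM in stem-cell-enriched culture. These are means 4.22-fold and 9.3-fold lower, with log2 fold changes of -2.03 (SE 0.32, adjusted p = 0.00905) and -3.07 (SE 0.32, adjusted p = 0.00172). Without H2023 normal wild type replicate 1 the first of them just missed the threshold (-2.01, adjusted p = 0.0525). In the order of groups all 4 normal groups, from 74.3 to 30 TPM and overlapping with their neighbours, stood above all 4 stem-cell-enriched groups. A549 stem-cell-enriched labelled knockout (13.3 TPM) stood clear of the groups above and below it, and A549 stem-cell-enriched wild type was lowest, at 4.83 TPM.

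FOSL2, which encodes FRA-2, passed in none of the 4 culture comparisons over all genes. In H2023 wild type it was at 97.86 and 55.41 TPM in normal culture and at 48 and 35.76 TPM in stem-cell-enriched culture (log2 fold change -0.82, SE 0.27, adjusted p = 0.0754). In H2023 labelled knockout it was at 74.5 and 69.05 TPM and at 39.4 and 38.37 TPM (log2 fold change -0.87, SE 0.27, adjusted p = 0.0555). Both changes were larger than those that passed for IER2 (-0.74 and -0.6), with a standard error of 0.27 against 0.15. That error comes from the fit of all 8 H2023 libraries. The FOSL2 replicates were far apart in normal wild type and close in labelled knockout. Both FOSL2 values passed when genes with a mean under 1 TPM were left out (adjusted p = 0.0402 and 0.0276), and the wild-type value also without normal replicate 2 (-1.22, adjusted p = 0.0284). In A549 the log2 fold changes of FOSL2 were -0.36 in wild type and -0.09 in labelled knockout. FOSB, a member that is low without a stimulus, was at 0.15 to 0.92 TPM in all normal libraries. In stem-cell-enriched culture it was at 0.27 and 0.37 TPM in A549 wild type and at 2.07 and 0.4 TPM in A549 labelled knockout. The corresponding H2023 libraries had FOSB at 0.42 and 3.36 TPM in wild type and at 2 and 2.81 TPM in labelled knockout. No culture difference of FOSB passed, the smallest adjusted p being 0.14. All neighbours in the order of FOSB levels overlapped.

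Because TPM is scaled by length, the FOS-family transcripts can be set against each other within a library. FOSL2 was the most abundant of the 4 in 14 of the 16 libraries and FOSL1 in the other 2, A549 normal wild type replicate 1 and H2023 normal labelled knockout replicate 2. FOS made up between 1.26% and 5.97% of the summed FOS-family TPM in the 8 normal libraries. In stem-cell-enriched culture its share was 43.4% and 45% in A549 wild type, 13.3% and 10.3% in A549 labelled knockout, 18.2% and 25.5% in H2023 wild type, and 20.1% and 16.5% in H2023 labelled knockout. The share of FOSL1 ran from 14.4% to 56% in normal libraries and from 5.52% to 16.5% in stem-cell-enriched ones. In all 8 normal libraries FOSL1 was above FOS, by 5.94-fold to 36.3-fold, and in all 8 stem-cell-enriched libraries FOS was above FOSL1, by 1.1-fold to 8.15-fold.

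**Figure D2:**
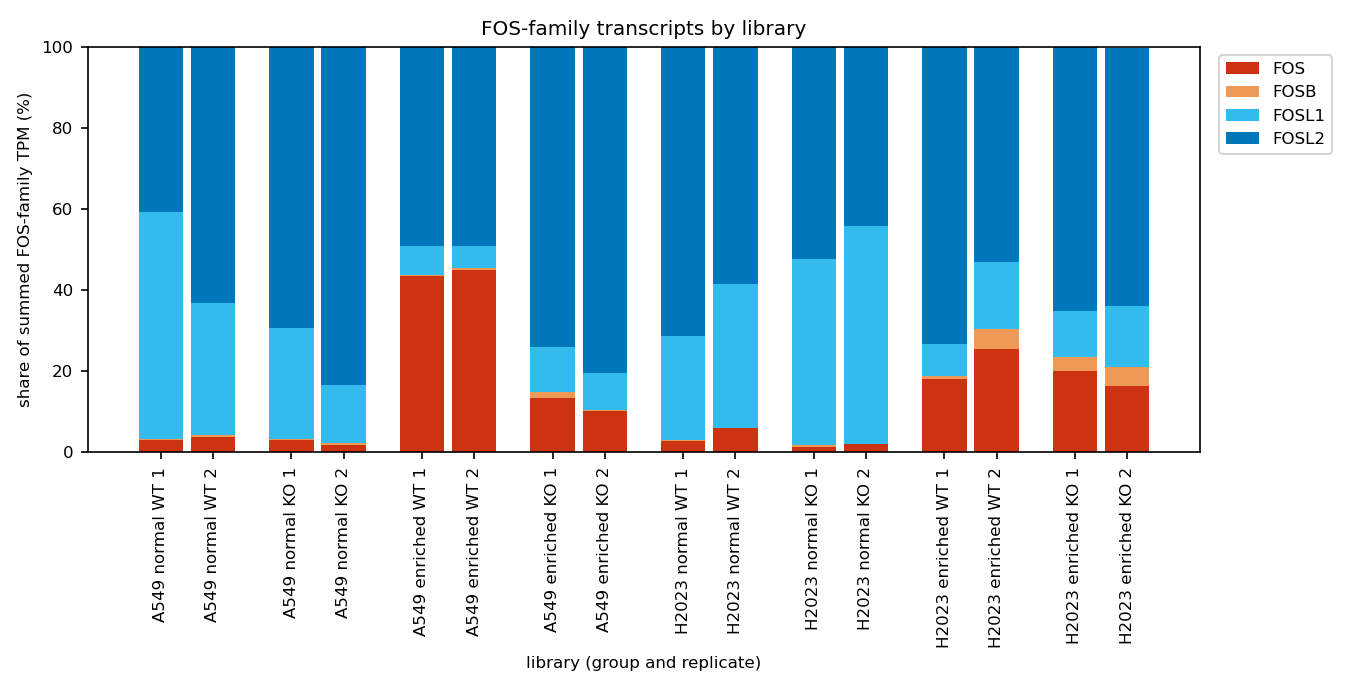
Share (%) of the summed TPM of FOS, FOSB, FOSL1 and FOSL2 held by each gene, 1 bar per library, grouped by line, culture and genotype. The FOS share is at most 5.97% in normal culture and at least 10.3% in stem-cell-enriched culture, with A549 stem-cell-enriched wild type highest at 43.4% and 45%.

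JUN encodes c-Jun, the JUN-family partner most often studied with FOS. In A549 wild type it was at 20.06 and 15.36 TPM in normal culture and at 4.27 and 2.9 TPM in stem-cell-enriched culture, 4.94-fold lower (log2 fold change -2.03, SE 0.29, adjusted p = 0.00101). In A549 labelled knockout it was at 25.33 and 22.95 TPM and at 11.7 and 6.12 TPM, 2.71-fold lower (log2 fold change -1.4, SE 0.29, adjusted p = 0.0113). That second call was lost without either normal library labelled knockout, at -1.33 (adjusted p = 0.0725) without replicate 1 and -1.47 (adjusted p = 0.0541) without replicate 2. In H2023 the stem-cell-enriched replicates of JUN were far apart, at 6.96 and 18.51 TPM in wild type and 7.32 and 18.05 TPM in labelled knockout. The normal libraries there lay between 17.86 and 25.19 TPM, and the log2 fold changes of -0.81 (adjusted p = 0.309) and -0.95 (adjusted p = 0.228) did not pass. In the order of groups, A549 stem-cell-enriched wild type was lowest, at 3.58 TPM and clear of the next group, and all other neighbours overlapped.

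JUNB, whose protein can replace c-Jun in the dimer and is a weaker activator at many AP-1 sites, rose in A549 wild type. It was at 22.9 and 20.4 TPM in normal culture and at 54.71 and 65 TPM in stem-cell-enriched culture, 2.76-fold higher (log2 fold change 1.42, SE 0.21, adjusted p = 0.00137). In A549 labelled knockout JUNB was at 39.78 and 23.9 TPM and at 34.99 and 35.01 TPM, overlapping (log2 fold change 0.18, adjusted p = 0.619). In H2023 it was between 43.7 and 81.58 TPM in all 8 libraries, and neither culture difference passed. In the order of JUNB levels the 4 H2023 groups and A549 stem-cell-enriched wild type, at 67.7 to 51.9 TPM, overlapped with their neighbours, and A549 normal wild type was lowest, at 21.6 TPM and clear of the next group. The JUN-family total in a library also holds JUND, which made up between 40.2% and 71.3% of it. JUN made up 10.8% to 23.7% of JUN-family TPM in normal libraries and 2.18% to 11.4% in stem-cell-enriched ones, and JUNB 16.4% to 46% and 27.5% to 48.8%.

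Among the other immediate early transcription factors, IER2, a small nuclear protein gene, was lower in H2023 stem-cell-enriched culture. In wild type it was at 37.16 and 43.91 TPM in normal and at 21.15 and 26.65 TPM in stem-cell-enriched culture (log2 fold change -0.74, SE 0.15, adjusted p = 0.0198). In labelled knockout it was at 45.97 and 55.07 TPM and at 32.38 and 33.25 TPM (log2 fold change -0.6, SE 0.15, adjusted p = 0.0313). The groups of IER2 did not overlap, but neither call held when the H2023 values were centred on the median gene (-0.5, adjusted p = 0.0735, and -0.43, adjusted p = 0.0879) or rescaled without mitochondrial genes (-0.51, adjusted p = 0.0961, and -0.39, adjusted p = 0.147). The wild-type call of IER2 was also lost without 3 of the 4 libraries in turn, normal replicates 1 and 2 and stem-cell-enriched replicate 1, at -0.86 to -0.58. The labelled-knockout call was lost without any of the 4, at -0.73 to -0.47. In A549 IER2 stood at 19.14 to 43.86 TPM in all 8 libraries and no culture difference passed. IER2 was highest in H2023 normal labelled knockout, at 50.5 TPM and clear of the next group. A549 stem-cell-enriched wild type, A549 normal wild type and H2023 normal wild type followed at 42.2 to 40.5 TPM and overlapped, and the last 4 groups, at 32.8 to 23.9 TPM, overlapped with their neighbours.

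KLF6, a zinc finger factor, fell in A549 labelled knockout, from 16.95 and 21.09 TPM to 12.64 and 9.33 TPM (log2 fold change -0.75, SE 0.17, adjusted p = 0.0194). The call was lost without normal replicate 2 (-0.6, adjusted p = 0.125) or stem-cell-enriched replicate 2 (-0.55, adjusted p = 0.103). In A549 wild type KLF6 was at 17.62 and 16.23 TPM and at 13.29 TPM in both stem-cell-enriched libraries, which did not pass (-0.33, adjusted p = 0.171). In H2023 stem-cell-enriched culture its replicates were at 9.58 and 22.42 TPM in wild type and at 15.44 and 32.81 TPM in labelled knockout, a wider spread than that of the normal H2023 libraries, 22.17 to 29.04 TPM. In the order of KLF6 means 3 overlapping H2023 groups stood on top, at 27.4 to 23.6 TPM, and A549 stem-cell-enriched labelled knockout was lowest, at 11 TPM. That lowest group did not overlap with the next, A549 stem-cell-enriched wild type, but it did overlap with H2023 stem-cell-enriched wild type. EGR1, a zinc finger factor of the early growth response family, passed in no culture comparison. It stood at 0.7 to 1.72 TPM in all A549 libraries but 1, at 6.31 TPM. All neighbours in the order of EGR1 levels overlapped except the last, A549 normal wild type at 0.95 TPM and labelled knockout at 0.705 TPM.

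DUSP1 encodes a phosphatase that switches off MAP kinases and so feeds back on the signals that induce the other genes. It passed in no culture comparison. In A549 wild type it was at 113.72 and 103.98 TPM in normal and at 115.57 and 175.38 TPM in stem-cell-enriched culture, and in A549 labelled knockout at 309.65 and 216.71 TPM and at 285.7 and 257.57 TPM. In H2023 the values of DUSP1 in wild type were 55.72 and 49.22 TPM and then 20.49 and 47.59 TPM, and in labelled knockout 23.4 and 23.96 TPM and then 10.81 and 14.29 TPM. Its culture log2 fold changes were 0.39, 0.07, -0.72 and -0.88, in the order A549 wild type, A549 labelled knockout, H2023 wild type and H2023 labelled knockout, with adjusted p from 0.121 to 0.873. Single stem-cell-enriched libraries moved the wild-type values. In A549 wild type the value of DUSP1 was 0.68 (adjusted p = 0.0476) without replicate 1 and 0.09 without replicate 2. In H2023 wild type it was -1.31 (adjusted p = 0.022) without replicate 2 and -0.14 without replicate 1. In the order of groups the 4 A549 groups, at 271.6, 263.2, 145.5 and 108.8 TPM, stood above the 4 H2023 groups, at 52.5 to 12.6 TPM. The first 2, both labelled knockout, overlapped, as did H2023 stem-cell-enriched wild type and H2023 normal labelled knockout, at 34 and 23.7 TPM.

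**Figure D3:**
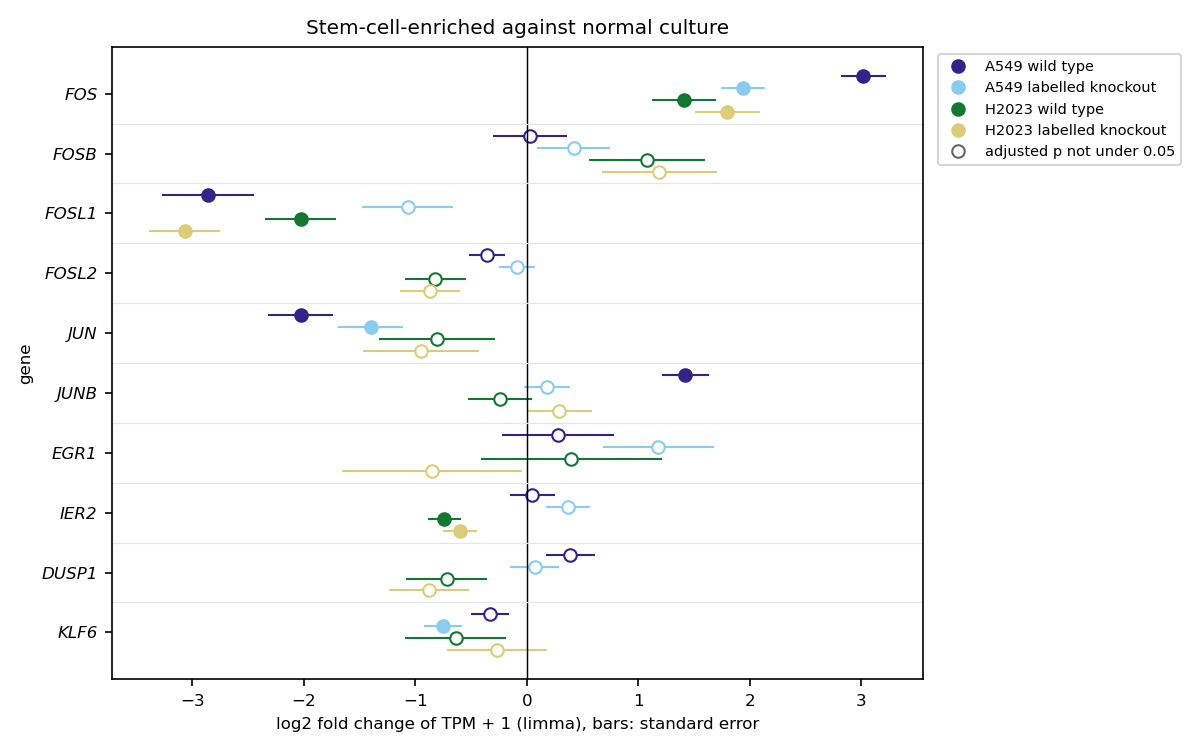
Log2 fold change of TPM + 1, stem-cell-enriched against normal culture (limma), for each gene, with standard errors as bars; colours are the 4 line and genotype pairs, and open points did not pass an adjusted p of 0.05. FOS lies right of 0 in all 4, between 1.41 and 3.02, and FOSL1 left of 0 in all 4, between -3.07 and -1.07.

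By culture, 2 of the 10 genes rose and 2 fell in A549 wild type, where 40.6% of all genes passed (19.0% higher, 21.6% lower). In A549 labelled knockout 1 rose and 2 fell, against 20.8% of all genes (10.9% higher, 9.87% lower). In H2023 wild type 1 rose and 2 fell, against 21.4% (3.96% higher, 17.4% lower). In H2023 labelled knockout 1 rose and 2 fell, against 26.9% (7.68% higher, 19.2% lower). The excess of lower calls in H2023 depends on the scaling. Higher genes made up 18.5% of all calls in H2023 wild type, but 56.4% after centring and 44.7% without mitochondrial genes. In H2023 labelled knockout they made up 28.6%, then 51% and 50.7%. In A549 wild type they made up 46.8%, and 57.5% without mitochondrial genes. The shares of the 10 genes, 4 of 10 in the first and 3 of 10 in each of the others, are thus near those of all genes. Groups did not overlap for 7, 5, 6 and 7 of the 10 in that order, against 71.3%, 62.6%, 60.7% and 65.7% of all genes. The median log2 fold change of the 10 was 0.04 and 0.12 in A549, against -0.01 for all genes in both genotypes, and -0.68 and -0.73 in H2023, against -0.18 and -0.12. The 2 replicates of H2023 stem-cell-enriched culture differed in these genes: replicate 2 was higher for 8 of the 10 in wild type, with a median log2 ratio of 0.84 against -0.02 over all genes, and for 7 of the 10 in labelled knockout, with 0.34 against -0.01.

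The second comparison was between libraries labelled knockout and wild type within a line and culture. In A549, FOSL2 and DUSP1 rose in both cultures. In A549 stem-cell-enriched culture FOSL1 rose as well, and FOS and JUNB fell. In H2023 no gene of the 18227 passed limma over 4 libraries, and for DUSP1 the H2023 values pointed the other way from A549, with both libraries labelled knockout below both wild-type ones in each culture. These A549 calls rest on 4 libraries each. With any 1 of the 4 left out, no gene of the 10 passed in either culture, while the direction of all 7 values was kept.

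FOSL2 was at 48.51 and 49.48 TPM in A549 normal wild type and at 96.58 and 126.36 TPM in the libraries labelled knockout, 2.28-fold higher (log2 fold change 1.16, SE 0.15, adjusted p = 0.016). In stem-cell-enriched culture it was at 36.73 and 39.06 TPM and at 90.89 and 119.08 TPM, 2.77-fold higher (1.43, SE 0.15, adjusted p = 0.00712). The groups were well apart in both cultures. Leaving out a library gave FOSL2 values of 0.96 to 1.35 (adjusted p from 0.118 to 0.175) and 1.24 to 1.63 (adjusted p from 0.0644 to 0.105). The authors' deposited table gave FOSL2 log2 fold changes of 1.27 (adjusted p = 8.78e-15) and 1.42 (adjusted p = 3.11e-14). In H2023 the FOSL2 groups overlapped in both cultures, with log2 fold changes of -0.04 and -0.09. The order of FOSL2 levels therefore had both A549 labelled-knockout groups on top, at 111.5 and 105 TPM, overlapping with each other and with the next. They were followed by the H2023 normal groups at 76.6 and 71.8 TPM, A549 normal wild type at 49 TPM, and the other 3 groups at 41.9 to 37.9 TPM, which overlapped.

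FOS passed by genotype in 1 of the 4 comparisons. In A549 stem-cell-enriched culture it was at 32.36 and 35.84 TPM in wild type and at 16.25 and 15.21 TPM in labelled knockout, 2.17-fold lower (log2 fold change -1.07, SE 0.13, adjusted p = 0.00909), and -1.14 to -1 without 1 library (adjusted p from 0.0784 to 0.116). The authors' deposited table gave -1.06 (adjusted p = 6.84e-06). In A549 normal culture the FOS groups overlapped (0.02, adjusted p = 0.976). In H2023 the log2 fold change was -0.74 in normal culture (SE 0.3, adjusted p = 0.309), without overlap, and -0.35 in stem-cell-enriched culture (SE 0.24, adjusted p = 0.525), with overlap. FOSB did not pass anywhere, with log2 fold changes of 0.26 to 0.65 and groups that overlapped in 3 of the 4 comparisons.

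FOSL1 in A549 stem-cell-enriched culture was at 5.26 and 4.4 TPM in wild type and at 13.4 and 13.17 TPM in labelled knockout, 2.75-fold higher (log2 fold change 1.3, SE 0.17, adjusted p = 0.0118). The value was 1.19 to 1.4 without 1 library (adjusted p from 0.0814 to 0.136), and the call was also lost when all 8 A549 libraries shared 1 fit (adjusted p = 0.0631). In A549 normal culture FOSL1 overlapped (-0.5, SE 0.49, adjusted p = 0.532). In H2023 normal culture it was at 35.06 and 33.69 TPM and at 64.99 and 83.57 TPM, 2.16-fold higher without overlap, and did not pass limma over all genes (1.08, SE 0.14, adjusted p = 0.126). It passed when genes with a mean under 1 TPM were left out (adjusted p = 0.0138). The authors' deposited table gave FOSL1 log2 fold changes of 1.38 (adjusted p = 7.57e-06) in A549 stem-cell-enriched and 1.1 (adjusted p = 5.88e-08) in H2023 normal culture. In H2023 stem-cell-enriched culture the groups overlapped (0.05, adjusted p = 0.972).

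JUNB fell in A549 stem-cell-enriched culture, from 54.71 and 65 TPM in wild type to 34.99 and 35.01 TPM in labelled knockout, 1.71-fold (log2 fold change -0.75, SE 0.12, adjusted p = 0.0204), and -0.87 to -0.63 without 1 library (adjusted p from 0.0874 to 0.165). In A549 normal culture it was at 22.9 and 20.4 TPM in wild type and at 39.78 and 23.9 TPM in labelled knockout, higher but not past the test (0.49, SE 0.25, adjusted p = 0.238). JUN was higher in the A549 libraries labelled knockout in both cultures without overlap, at 25.33 and 22.95 against 20.06 and 15.36 TPM in normal and at 11.7 and 6.12 against 4.27 and 2.9 TPM in stem-cell-enriched culture. Neither passed limma over 4 libraries (0.44, adjusted p = 0.144, and 1.07, adjusted p = 0.102), but the second passed when all 8 A549 libraries shared 1 fit (adjusted p = 0.0349). The authors' deposited table called JUN in both, at 0.5 (adjusted p = 0.0308) and 1.29 (adjusted p = 0.00283). In H2023 the JUN groups overlapped in both cultures, with log2 fold changes of 0.15 and 0.01, and so did the JUNB groups, with -0.35 and 0.18.

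DUSP1 separated the lines. In A549 normal culture it was at 113.72 and 103.98 TPM in wild type and at 309.65 and 216.71 TPM in labelled knockout, 2.42-fold higher (log2 fold change 1.24, SE 0.18, adjusted p = 0.0219). In A549 stem-cell-enriched culture it was at 115.57 and 175.38 TPM and at 285.7 and 257.57 TPM, 1.87-fold higher (0.93, SE 0.21, adjusted p = 0.0463). The second call lay close to the threshold, and centring on the median gene (0.88, adjusted p = 0.0528) or rescaling without mitochondrial genes (0.89, adjusted p = 0.0614) ended it. Without 1 library the DUSP1 values were 0.99 to 1.5 (adjusted p from 0.128 to 0.188) and 0.63 to 1.22 (adjusted p from 0.0607 to 0.24).

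In H2023 normal culture DUSP1 was at 55.72 and 49.22 TPM in wild type and at 23.4 and 23.96 TPM in labelled knockout, 2.22-fold lower, and in stem-cell-enriched culture at 20.49 and 47.59 TPM and at 10.81 and 14.29 TPM, 2.71-fold lower. Neither of these passed limma over all genes, with -1.11 (SE 0.1, adjusted p = 0.11) and -1.27 (SE 0.45, adjusted p = 0.322). The first passed when genes with a mean under 1 TPM were left out (adjusted p = 0.00747). In the authors' deposited table DUSP1 was called in all 4 comparisons, with log2 fold changes of 1.33 (adjusted p = 3.53e-11), 0.87 (adjusted p = 0.00102), -1.15 (adjusted p = 6.07e-12) and -1.53 (adjusted p = 0.00622), A549 before H2023 and normal before stem-cell-enriched.

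EGR1 was uneven between replicates. In H2023 normal culture it was at 1.66 and 1.07 TPM in wild type and at 4.32 and 14.16 TPM in labelled knockout, without overlap (log2 fold change 1.94, SE 0.57, adjusted p = 0.228), and 1.18 without the library at 14.16 TPM. The authors' deposited table called it there, at 2.76 (adjusted p = 0.0222). In A549 stem-cell-enriched labelled knockout EGR1 was at 6.31 and 1.04 TPM against 1.06 and 1.72 TPM in wild type (0.71, adjusted p = 0.49), and FOSB was high in the same library, at 2.07 against 0.4 TPM. In H2023 stem-cell-enriched labelled knockout EGR1 was at 10.17 and 1.22 TPM against 2.73 and 1.56 TPM (0.69, adjusted p = 0.736). Without the high library the EGR1 values in these groups were -0.21 and -0.48, so 1 library set the direction in each. In H2023 FOSB was not high together with EGR1. The library with EGR1 at 14.16 TPM had FOSB at 0.15 TPM, against 0.92 TPM in its replicate. The library with EGR1 at 10.17 TPM had FOSB at 2 TPM, against 2.81 TPM.

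IER2 was lower in the A549 libraries labelled knockout and higher in those of H2023, and no value passed over all genes in fits of 4 libraries. In A549 it was at 41.13 and 40.24 against 30.55 and 19.14 TPM in normal culture (-0.73, SE 0.22, adjusted p = 0.0976) and at 43.86 and 40.64 against 34.33 and 28.98 TPM in stem-cell-enriched culture (-0.41, SE 0.13, adjusted p = 0.103). The A549 normal value of IER2 passed narrowly with a minimum mean of 1 TPM (adjusted p = 0.0496) or when the 8 A549 libraries shared 1 fit (adjusted p = 0.0443). The IER2 groups did not overlap in any of the 4 comparisons. In H2023 the log2 fold changes were 0.31 (SE 0.14, adjusted p = 0.344) and 0.45 (SE 0.15, adjusted p = 0.304). KLF6 lay between -0.27 and 0.58 and did not pass limma. The authors' deposited table called KLF6 lower in A549 stem-cell-enriched culture, at -0.53 (adjusted p = 0.031).

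**Figure D4:**
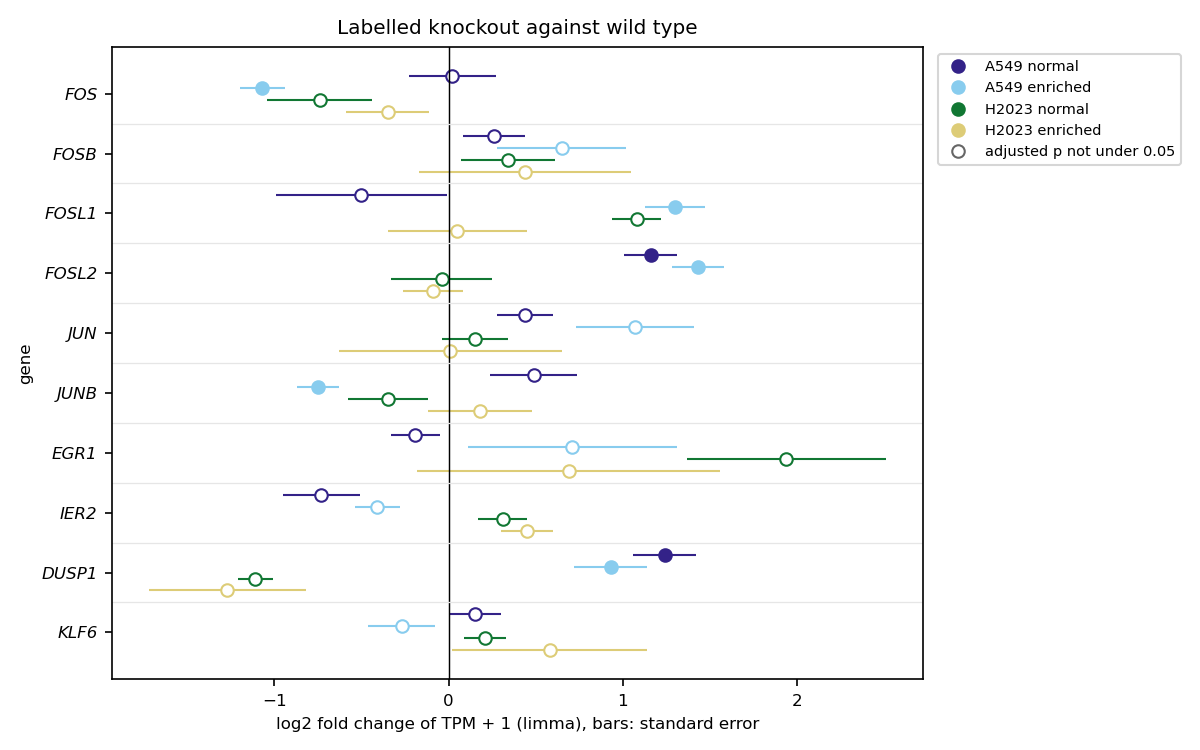
Log2 fold change of TPM + 1, labelled knockout against wild type (limma), for each gene, with standard errors as bars; colours are the 4 line and culture pairs, and open points did not pass an adjusted p of 0.05. DUSP1 lies at 1.24 and 0.93 in A549 and at -1.11 and -1.27 in H2023, and FOSL2 at 1.16 and 1.43 in A549 and near 0 in H2023.

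In all, 2 of the 10 genes rose and 0 fell in A549 normal culture, where 10.8% of all genes passed limma (4.54% higher, 6.28% lower). In A549 stem-cell-enriched culture 3 rose and 2 fell, where 13.2% passed (6.04% higher, 7.2% lower). In H2023 the count was 0 of 10 in both cultures, and 0.0% of all genes passed. That 0 depends on the fit: over all genes 147 passed in normal and 281 in the other culture when the 8 H2023 libraries shared 1 fit, and 481 and 6 with a minimum mean of 1 TPM. At an unadjusted p under 0.05, limma counted 3 of the 10 in H2023 normal culture (FOSL1, EGR1 and DUSP1) and 1 in stem-cell-enriched culture (IER2), beside 18.2% and 15.5% of all genes. By the authors' deposited table, 3 rose and 0 fell in the normal and 4 rose and 3 fell in the stem-cell-enriched culture of A549. For H2023 that table gave 2 higher and 1 lower in normal and 0 higher and 1 lower in the other culture. Of all genes with an adjusted p-value, 22.1%, 20.7%, 10.8% and 5.07% passed in that table. Groups did not overlap for 6, 9, 6 and 2 of the 10, against 61.7%, 60.5%, 50.6% and 47.5% of all genes. The median log2 fold change of the 10 by limma was 0.21, 0.68, 0.18 and 0.11 in the same order, against -0.03, 0.03, 0.01 and 0.06 over all genes.

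Whether the effect of the knockout label differed between lines or cultures was tested on the log2 fold changes and standard errors of the authors' deposited table, since a call in one table and not in another shows no difference. Between lines, the effect on DUSP1 was lower in H2023 than in A549 by -2.48 in normal culture (SE 0.24, adjusted p = 1.98e-22) and by -2.4 in stem-cell-enriched culture (SE 0.47, adjusted p = 1.01e-05), and both passed a limma interaction term too (adjusted p = 0.00202 and 0.0422). For FOSL2 the difference was -1.41 (SE 0.44, adjusted p = 0.0143) and -1.6 (SE 0.27, adjusted p = 3.32e-07), of which the second passed in limma as well (adjusted p = 0.0122, against 0.0592 for the first). In normal culture JUNB differed by -1 (SE 0.33, adjusted p = 0.0191), EGR1 by 3.12 (SE 1.03, adjusted p = 0.0205) and IER2 by 0.85 (SE 0.27, adjusted p = 0.0156). None of these 3 passed the limma interaction (adjusted p = 0.171, 0.0576 and 0.0561). FOSL1 differed in stem-cell-enriched culture by -1.51 (SE 0.52, adjusted p = 0.0336), with an interaction of -1.25 (adjusted p = 0.123). IER2 there passed the limma interaction (0.86, adjusted p = 0.0432) and not the test on deposited values (0.76, SE 0.29, adjusted p = 0.0634). The count was 5 of 10 in normal culture, where 15.3% of all genes passed, and 3 of 10 in stem-cell-enriched culture, where 12.9% passed.

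Between the cultures of A549, the effect on JUNB differed by -1.42 (SE 0.31, adjusted p = 0.000232, limma interaction -1.25, adjusted p = 0.0497). JUNB was the 1 gene of 10 called, against 8.31% of all genes. For FOS the difference of -1.2 (SE 0.45) did not pass (adjusted p = 0.0738, limma interaction 0.0566), nor did 1.88 (SE 0.79) for FOSL1 (adjusted p = 0.136). Between the cultures of H2023, 0 of 10 passed by either method, against 0.39% of all genes by the difference of deposited values. At an unadjusted p under 0.05 FOSL1 alone of the 10 was counted, with a difference of -1.24 (SE 0.48, adjusted p = 0.615), beside 4.06% of all genes.

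Other genes of the pathway were taken from lists and are given as counts. Beside the counts by genotype, 10.8% of all genes passed limma in A549 normal and 13.2% in A549 stem-cell-enriched culture. Beside those by culture, 40.6% passed in A549 wild type and 20.8% in A549 labelled knockout. In H2023 21.4% passed by culture in wild type and 26.9% in labelled knockout. Of 10 measured AP-1 subunits and dimer partners, limma found 0 higher and 1 lower by genotype in each A549 culture. That gene was BATF2, a basic leucine zipper partner of JUN proteins, with log2 fold changes of -0.85 in normal (adjusted p = 0.042) and -2.93 in the other culture (adjusted p = 0.0207). By culture the partners gave 2 higher and 1 lower in A549 wild type, where BATF2 stood at 3.18 (adjusted p = 0.000719), and 0 higher and 1 lower in A549 labelled knockout, where BATF3 stood at -0.66 (adjusted p = 0.0332). In H2023 they gave 0 and 1 in wild type, with JDP2 at -1.32 (adjusted p = 0.0373), and 2 and 0 in labelled knockout, with BATF2 at 1.12 (adjusted p = 0.0155) and JUND at 0.97 (adjusted p = 0.0491).

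Of 23 other measured immediate early genes, 2 were higher and 1 lower by genotype in A549 normal culture and 3 higher and 3 lower in A549 stem-cell-enriched culture. On the log2 scale RHOB, a small GTPase gene, rose by 2.04 (adjusted p = 0.00518) and IER3 was at -1.23 (adjusted p = 0.0234) in normal culture. In stem-cell-enriched culture KLF10 was at 1.08 (adjusted p = 0.00848), CCN2, a matricellular protein gene, at -1.91 (adjusted p = 0.00382) and ZFP36, which encodes an mRNA-decay factor that binds AU-rich elements, at -1.43 (adjusted p = 0.00719). By culture the counts were 4 higher and 4 lower, 2 and 4, 0 and 4, and 3 and 5, in the order A549 wild type, A549 labelled knockout, H2023 wild type and H2023 labelled knockout. Of all genes, 40.6%, 20.8%, 21.4% and 26.9% passed in these comparisons. CCN1, a matricellular protein gene, fell in all 4, with log2 fold changes of -3.67, -3.09, -2.43 and -2.67 (adjusted p = 6.25e-05, 0.000343, 0.000797 and 0.000395). Its values were 38.18 to 77.89 TPM in the normal libraries and 2.49 to 12.84 TPM in the stem-cell-enriched ones. GADD45B was at -2.25, -1.85 and -2.13 in the last 3 of these comparisons (adjusted p = 0.000989, 0.00183 and 0.000541). For A549 wild type no test result of GADD45B is reported here. Its values there were 32.68 and 43.82 TPM in normal and 19.73 and 30.22 TPM in stem-cell-enriched culture. These groups stood close without overlapping, and 71.3% of all genes did not overlap in that comparison.

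Of 24 measured kinases, phosphatases and factors upstream of these genes, 1 was higher and 4 lower by genotype in A549 normal culture and 2 higher and 1 lower in A549 stem-cell-enriched culture. The MAP kinase phosphatase gene DUSP8 was at -2.24 (adjusted p = 0.00614) and -1.57 (adjusted p = 0.0131) in the A549 cultures, opposite in sign to DUSP1. DUSP5 was at 1.67 (adjusted p = 0.00568) in stem-cell-enriched culture. By culture the counts were 4 higher and 8 lower, 8 and 0, 2 and 5, and 6 and 5, in the order used above. Of all genes, 40.6%, 20.8%, 21.4% and 26.9% passed in that order. DUSP6, a phosphatase gene that ERK signalling induces, rose in all 4, by 1.75, 3.05, 1.14 and 2.71 (adjusted p = 0.000191, 0.000134, 0.0118 and 0.000607), while DUSP1 passed in none. DUSP5 fell in A549 wild type (-0.7, adjusted p = 0.00814). In the other line and genotype pairs the mean of DUSP5 was higher in stem-cell-enriched than in normal culture.

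Of 14 measured genes known to have AP-1 sites in their control regions, 3 were higher and 2 lower by genotype in each A549 culture. CXCL8, a chemokine gene, was at -3.89 (adjusted p = 0.00533) in normal culture, and PLAUR, which encodes the urokinase receptor, at 1.22 (adjusted p = 0.00636) in stem-cell-enriched culture. By culture the counts were 5 higher and 6 lower, 5 and 5, 1 and 3, and 3 and 3, in the order used above. The shares of all genes were 40.6%, 20.8%, 21.4% and 26.9%. CXCL8 was at 3.43, 2.57 and 3.87 in the last 3 comparisons (adjusted p = 0.00428, 0.0203 and 0.00396). In A549 wild type CXCL8 did not pass. It was at 109.33 and 123.55 TPM in normal and at 217.89 and 313.23 TPM in stem-cell-enriched culture there. These groups did not overlap, which held for 71.3% of all genes in that comparison. For all 4 lists, limma counted 0 by genotype in H2023. The medians of the lists by genotype lay between -0.42 and 0.25, beside -0.03 to 0.06 over all genes.

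Across the 8 group means on the log2 scale, the level of FOS ran against that of JUN (Pearson r = -0.96) and FOSL1 (r = -0.94), and JUN ran with FOSL1 (r = 0.85) and KLF6 (r = 0.7). EGR1 followed none of them closely, its largest correlation with another member being -0.63 with DUSP1. These are descriptions over 8 points that share culture and line. Among 10768 genes with a mean of at least 5 TPM, the genes whose group means were most like those of FOS were CEACAM1 (r = 0.987), TBC1D8B and CFB (both r = 0.976), GLRX (r = 0.975) and RNF103 (r = 0.974). Most like FOSL1 were HSP90AA1 (r = 0.991), CAPN15 (r = 0.989), ZNF326 (r = 0.984), UNG (r = 0.982) and NUDT5 (r = 0.981).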

How the data were processed

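RNA was made into stranded mRNA libraries from 1 µg of total RNA, per the labels' protocols. The submitters' processing notes name HISAT2, StringTie and GRCh38, without versions or roles. The authors deposited 4 tables, 1 per line and culture, with TPM per library. Each table also holds, per the file headers, the authors' mean normalized count (a signal per gene over its 4 libraries), log2 fold change with its standard error, test statistic (a score) and p-value with an adjusted p-value. The statistic was not used, and directions came from the fold change. Which line a column belongs to was taken from its table. Each library summed to 991838 to 998125 TPM. Depth per library is unknown, so no limit on a 0 was set.

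Of 18361 rows, 119 repeated identifiers with identical values were reduced to 1 row each, leaving 18227 genes. All genes were fitted on log2(TPM + 1) by limma 3.58.1 in R 4.3.3, allowing the variance to follow the mean. Tests were two-sided, and p-values were adjusted over all genes by Benjamini and Hochberg's method, with a threshold of 0.05. The genotype fits used 4 libraries and the culture fits the 8 of a line. Differences between genotype effects used the authors' deposited log2 fold changes and standard errors against a normal distribution. The fit was tested on simulated data with independent noise in each library, and the outcome is not reported here. That simulation held no clone or replicate effect, so it cannot show how the fit behaves where libraries share one. Alternatives were a pseudocount of 0.1, a minimum mean of 1 TPM, rescaling without mitochondrial genes, centring, a replicate block, 8 libraries in a genotype fit, the authors' table and leaving out each library. All 10 genes were named, and from the other lists at most 2 called genes in each direction per comparison, those with the largest change; some of these are not reported here. The genes and lists were chosen, and the motifs searched, with earlier results of these data or the sequences known, so neither gives independent support. Likeness was Pearson's r over group means of log2(TPM + 1).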

Additional observations from a re-analysis of the deposited data

Results flagged for a closer look

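The effect of the knockout label differed between lines or cultures for 6 of the 10 genes, by a test of the difference of the authors' deposited log2 fold changes, against 24.4% of all genes over the same 4 tests. H2023 minus A549 in normal culture gave -2.48 for DUSP1, -1.41 for FOSL2, -1.0 for JUNB, 3.12 for EGR1 and 0.85 for IER2. The EGR1 levels in the 2 H2023 libraries labelled knockout behind that value were 4.32 and 14.16 TPM. H2023 minus A549 in stem-cell-enriched culture gave -2.4 for DUSP1, -1.6 for FOSL2 and -1.51 for FOSL1. Stem-cell-enriched minus normal culture in A549 gave -1.42 for JUNB, which rose with culture in wild type but did not pass in labelled knockout. The limma interaction term passed for DUSP1 in both cultures, for FOSL2 in stem-cell-enriched culture and for JUNB between the A549 cultures, and not for the other 5 values. It also passed for IER2 between lines in stem-cell-enriched culture, where the test on deposited values did not.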

How the results depend on the processing

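No called value of the 10 genes changed sign under any alternative. Over 29 called values, 120 of 132 processing alternatives kept the call and 12 lost it, and over the values not called as reported 20 of 421 gained one and 9 changed sign. With 1 library left out, 37 of 80 kept it and 43 lost it, and of the values not called with all libraries 7 of 240 gained a call and 30 changed sign. By culture the gains were DUSP1 in both wild types, FOSB in A549 labelled knockout (0.99, adjusted p = 0.0297, without stem-cell-enriched replicate 2) and H2023 wild type (1.89, adjusted p = 0.0264, without stem-cell-enriched replicate 1), EGR1 (2.1, adjusted p = 0.00316, without stem-cell-enriched replicate 2) and IER2 (0.69, adjusted p = 0.0327, without normal replicate 1) in A549 labelled knockout, and FOSL2 in H2023 wild type. The number of the 10 genes called by genotype fell from 2 in A549 normal and from 5 in A549 stem-cell-enriched culture to 0 with any 1 library left out. Over all genes 0 then passed too, except 38 without A549 stem-cell-enriched labelled knockout replicate 1. A lone library is there assumed to vary like the other group. In H2023 normal culture the count rose from 0 to 2 with a minimum mean of 1 TPM and to 3 in the authors' deposited table, and in H2023 stem-cell-enriched culture from 0 to 1 in that table. By culture, with 1 library left out, the count ranged from 4 to 5 in A549 wild type, from 1 to 4 in A549 labelled knockout (1 without normal replicate 2), from 0 to 3 in H2023 wild type (0 without normal replicate 1) and was 2 throughout in H2023 labelled knockout. The limma interaction called 1 in place of 5 between lines in normal culture, beside 12.3% of all genes; leaving out libraries was not possible for the deposited fold changes. Replicate numbers are not stated to pair libraries. Deviations of same-numbered wild-type and labelled-knockout libraries correlated at 0.075, 0.131, 0.027 and 0.461, and those of same-numbered normal and stem-cell-enriched libraries of a genotype at 0.121, 0.096, 0.162 and 0.134. A replicate block gave counts of 2, 6, 0 and 0 by genotype and 5, 4, 4 and 4 by culture. By genotype it added JUN at an adjusted p of 0.0317 in the stem-cell-enriched A549 libraries. By culture it added FOSL2 in H2023 wild type (adjusted p = 0.0374), H2023 labelled knockout (adjusted p = 0.0265) and, just under the threshold of 0.05, A549 wild type, and FOSL1 in A549 labelled knockout (adjusted p = 0.0444). Without a record of depth, values near 0 such as those of FOSB and EGR1 have unknown counting error.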
